A study of Mus musculus with 12 samples.

Results

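The transcripts described are those of 5 subunits of the GABA-A receptor, Gabra2, Gabra3, Gabra4, Gabra5 and Gabrd, which encode the alpha2, alpha3, alpha4, alpha5 and delta subunits. They were taken by symbol from a striatal count table of 24421 genes, and all 5 had enough counts to be among the 15148 genes tested. The study measured RNA in bilateral striatum of male C57BL/6J mice, an inbred strain, in 6 varenicline libraries and 6 saline libraries. Varenicline, a partial agonist at nicotinic acetylcholine receptors that is prescribed for smoking cessation, was injected at 2 mg/kg, and the other mice received saline. All mice had drunk 20% ethanol in the Drinking-in-the-Dark procedure, in which a 2 h session began 3 h into the dark phase. It ran for 3 cycles of 2 days, every mouse was given saline in the first cycle, and the assigned injection came 30 min before the second session of the other 2 cycles. The labels give neither ages nor whether a library held a single animal, and p-values here therefore rest on the spread among libraries, which may be technical. There was no group without ethanol, so the comparison is between drug and vehicle in drinking mice.

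GABA-A receptors are pentameric chloride channels opened by GABA, the main inhibitory transmitter of the brain and the transmitter of the striatal projection neurons. The alpha subunit shapes the affinity for GABA and the response to benzodiazepines. Receptors with alpha2 or alpha3 sit mostly at synapses, whereas alpha4 assembles with delta into receptors outside synapses that carry a persistent, tonic inhibition and respond to neurosteroids. Receptors with alpha5 also contribute to tonic inhibition, best known from the hippocampus. Whether the delta receptors respond to low ethanol concentrations has been debated.

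On the mm10 build, in the coordinates of the count table, Gabra2 (ENSMUSG00000000560, 10 exons) lies on chromosome 5 from 70961057 to 71095849 and Gabra4 (ENSMUSG00000029211, 9 exons) on the same chromosome from 71569734 to 71658308. Both genes belong to a cluster of subunit genes, with Gabrg1 next to Gabra2 and Gabrb1 next to Gabra4. Gabra5 (ENSMUSG00000055078, 10 exons) lies on chromosome 7 from 57407669 to 57510009, next to Gabrg3. Gabra3 (ENSMUSG00000031343, 10 exons) lies on chromosome X from 72432676 to 72656246, with Gabrq as a neighbour, and Gabrd (ENSMUSG00000029054, 9 exons) on chromosome 4 from 155384979 to 155398069. All 5 are on the minus strand. In GENCODE vM21 an exon of Gabrb1 on the opposite strand overlaps exons of Gabra4, and in the count table exons of the antisense gene Gm9962 overlap those of Gabra5. In the exons of the count table no gene overlaps Gabra4. Since the use of strand in counting is not given, reads from overlapping exons cannot be told apart.

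Gabra2 and Gabra4 were higher and Gabra3 and Gabra5 lower in most varenicline libraries, none at an adjusted p under 0.05 in edgeR with all 12 libraries. The 250 bases before their RefSeq starts (GRCm38.p6, minus strand, 5′ to 3′) are shown beside each other. A link between sequence and direction was not tested. RefSeq windows were matched for 4 of the 5 genes. Capitals mark matches on either strand. The promoter element bound by Sp1 was searched as GGGCGG, called a GC box below. The TATAAA letters of core promoters were searched in the same way.
Gabra2, chr5:71095850-71096099: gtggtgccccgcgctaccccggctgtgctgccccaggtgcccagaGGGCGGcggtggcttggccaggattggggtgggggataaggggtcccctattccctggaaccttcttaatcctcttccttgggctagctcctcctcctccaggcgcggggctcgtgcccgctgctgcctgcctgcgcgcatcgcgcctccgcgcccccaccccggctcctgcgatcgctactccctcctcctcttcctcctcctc
Gabra4, chr5:71658309-71658558: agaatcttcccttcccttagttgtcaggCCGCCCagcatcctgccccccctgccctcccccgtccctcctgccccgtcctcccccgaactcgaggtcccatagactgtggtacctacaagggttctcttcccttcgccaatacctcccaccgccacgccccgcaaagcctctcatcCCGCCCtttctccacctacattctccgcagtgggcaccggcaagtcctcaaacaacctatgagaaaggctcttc
Gabra3, the upstream of 2 windows, chrX:72656920-72657169: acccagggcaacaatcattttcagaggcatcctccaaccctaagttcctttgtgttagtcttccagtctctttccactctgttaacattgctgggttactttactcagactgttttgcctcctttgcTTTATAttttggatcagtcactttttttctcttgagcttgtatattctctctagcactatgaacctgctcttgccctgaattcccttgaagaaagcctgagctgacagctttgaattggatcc
Gabra5, chr7:57510060-57510309: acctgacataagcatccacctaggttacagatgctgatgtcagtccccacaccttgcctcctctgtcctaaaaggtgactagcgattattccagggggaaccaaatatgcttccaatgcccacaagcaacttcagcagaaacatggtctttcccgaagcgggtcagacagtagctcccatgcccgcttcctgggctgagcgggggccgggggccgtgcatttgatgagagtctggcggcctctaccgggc

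The windows differed in base composition. Those of Gabra2 and Gabra4 abut the gene starts of the count table. The Gabra3 window shown lies upstream of its start there (72656246) and in GENCODE vM21 (72656848), so the windows are not at like positions. GC content was 70% for Gabra2 and 61.2% for Gabra4, with 18 and 12 CG dinucleotides, against 56.4% with 9 for Gabra5 and 42.4% with 0 for Gabra3. Over all 32841 RefSeq windows of that length the medians were 52.4% and 6. A GC box was present in the Gabra2 window and at 2 places in the Gabra4 window, and 32.7% of all windows hold it. The TATAAA letters were found in the Gabra3 window on the opposite strand, and 12.4% of all windows hold them. Neither the cyclic AMP response element TGACGTCA, its part TGACG nor the Egr site GCGTGGGCG was found in any of the 5 windows of these genes (1.55%, 17.8% and 0.536% of all windows). These matches describe letters only.

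Per length, in the deposited FPKM, Gabrd was the most abundant of the 5 transcripts in all 12 libraries and Gabra5 the scarcest. Gabrd averaged 76.0 ± 7.65 FPKM with varenicline and 73.1 ± 10.2 FPKM with saline (SD, n = 6 each). Gabra4 came next in every library, at 50.3 ± 8.49 FPKM with varenicline and 41.6 ± 5.19 FPKM with saline. The places below it were exchanged between groups. Gabra2 lay above Gabra3 in 5 of 6 varenicline libraries and in 0 of 6 saline libraries. Varenicline 6 had the saline order. The levels were 19.1 ± 1.93 FPKM for Gabra2 and 15.6 ± 5.24 FPKM for Gabra3 with varenicline, and 16.98 ± 2.02 and 24.1 ± 5.67 FPKM with saline. The Gabra2 to Gabra3 FPKM ratio ran from 0.603 to 1.71 with varenicline (median 1.47), against 0.514 to 0.986 with saline (median 0.703), so the ranges overlapped through varenicline 6. With counts per kilobase of the count table's exon length in place of FPKM, Gabra2 lay above Gabra3 in 5 varenicline libraries and in 1 saline library. Gabra5 averaged 12.3 ± 1.68 FPKM with varenicline and 14.5 ± 1.69 FPKM with saline, close below Gabra3 with varenicline and close below Gabra2 with saline.

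**Figure D1:**
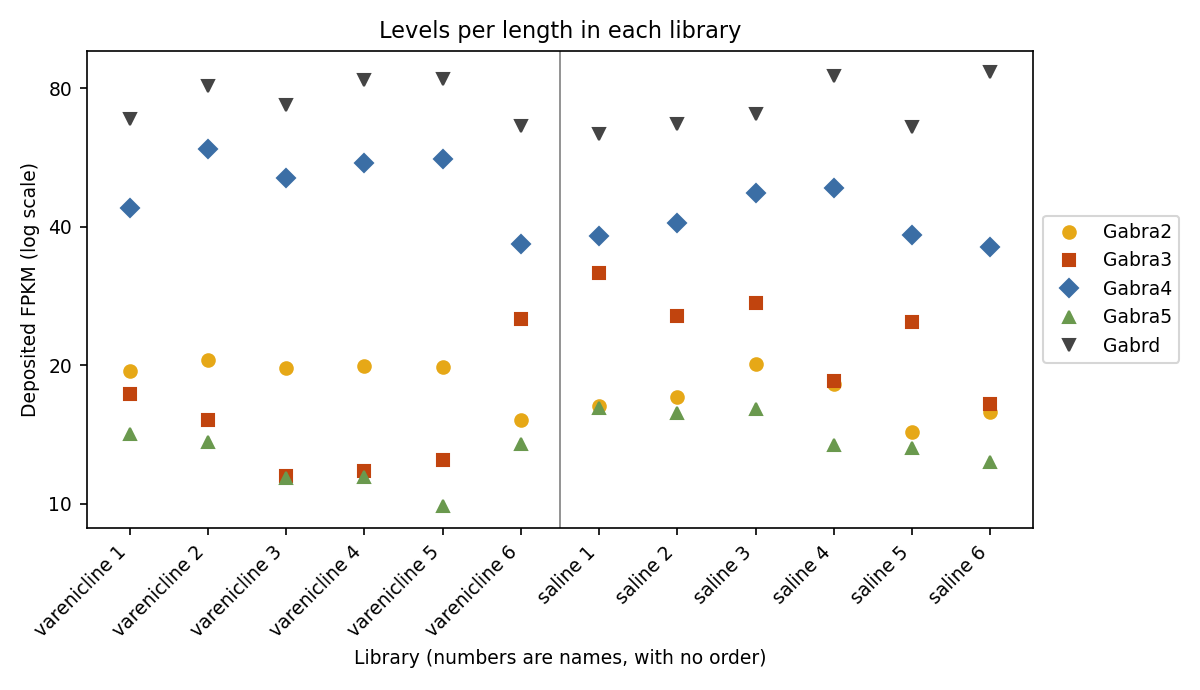
Deposited FPKM (log axis) of Gabra2, Gabra3, Gabra4, Gabra5 and Gabrd in each of the 12 libraries, varenicline on the left and saline on the right. Gabrd and Gabra4 are on top in every library, and Gabra3 lies below Gabra2 in 5 of 6 varenicline libraries.

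Of the 5 transcripts, 0 passed an adjusted p of 0.05 in edgeR, as did 0% of all tested genes in either direction. At an unadjusted p under 0.05, Gabra4 was higher and Gabra3 and Gabra5 were lower, where 7.26% of all tested genes were higher and 9.63% lower. Their median log2 fold change was 0.06, against 0.01 over all tested genes. In none of the 5 were the groups separate, a pattern seen in 0.429% of tested genes with varenicline higher and 0.33% with varenicline lower. The levels below are CPM, read counts divided by library size after TMM scaling, which compare libraries for the same gene.

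Gabra4, the alpha partner of delta in extrasynaptic receptors, averaged 196.5 ± 33.7 CPM with varenicline and 163.9 ± 20.2 CPM with saline (SD, n = 6 each). The varenicline libraries ran from 142.9 to 230.6 CPM with a median of 207.4, and the saline libraries from 143.6 to 191.9 CPM with a median of 155.8. Varenicline 2, 3, 4 and 5 were above every saline library, varenicline 1 lay at 171 CPM inside the saline range, and varenicline 6 lay just below the lowest saline library. The log2 fold change was 0.26 (SE 0.108, 95% interval 0.03 to 0.49, edgeR adjusted p = 0.239), about 20.0% higher.

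Gabrd, the delta subunit, had the smallest fold change of the 5. It averaged 138.5 ± 13.3 CPM with varenicline and 133.0 ± 19.5 CPM with saline. The varenicline libraries ran from 123.5 to 152.0 CPM (median 139.7) and the saline libraries from 116.7 to 159.3 CPM (median 123.3), where saline 4 and 6 stood at 156 and 159 CPM. All varenicline values lay inside the saline range. The log2 fold change was 0.06 (SE 0.0887, 95% interval -0.13 to 0.25, edgeR adjusted p = 0.778). The interval includes 0 and also true differences up to about 0.25 in log2. The ratio of Gabrd to Gabra4 in FPKM was 1.53 ± 0.150 with varenicline and 1.78 ± 0.320 with saline, with overlapping ranges of 1.37 to 1.81 and 1.49 to 2.40.

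Gabra2, whose product is a main synaptic alpha subunit of the striatum, averaged 44.4 ± 4.76 CPM with varenicline and 39.0 ± 4.89 CPM with saline. Varenicline 1 to 5 lay close together, from 44.3 to 48.6 CPM, and varenicline 6 lay at 35.1 CPM. The saline libraries ran from 32.4 to 46.3 CPM with a median of 38.6, so 2 varenicline libraries lay above all of them. The log2 fold change was 0.19 (SE 0.0900, 95% interval -0.01 to 0.38, edgeR adjusted p = 0.309). Gabra2 and Gabra4, both in the chromosome 5 cluster, had an FPKM ratio, Gabra4 to Gabra2, that overlapped between the groups. It was 2.62 ± 0.247 with varenicline and 2.45 ± 0.176 with saline.

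Gabra3, which encodes the alpha3 subunit found in cortical neurons and in monoaminergic and cholinergic cells, had the largest fold change of the 5. It averaged 54.8 ± 18.4 CPM with varenicline and 84.8 ± 19.4 CPM with saline (SD, n = 6 each). The varenicline libraries ran from 40.3 to 88.8 CPM (median 48.6), and the saline libraries from 59.2 to 110.6 CPM (median 89.0). Varenicline 2, 3, 4 and 5 were below every saline library, varenicline 1 at 60.6 CPM was just above the lowest of them, and varenicline 6 at 88.8 CPM lay at the saline median. The log2 fold change was -0.63 (SE 0.189, 95% interval -1.03 to -0.23, edgeR adjusted p = 0.147), or 0.645 of the saline level. Counts ran from 754 to 1557 per varenicline library and from 1306 to 2463 per saline library, so counting error is small beside the spread between libraries.

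Gabra5, the alpha5 subunit, averaged 29.8 ± 4.24 CPM with varenicline and 35.4 ± 3.93 CPM with saline. The varenicline libraries ran from 24.3 to 34.2 CPM (median 29.9) and the saline libraries from 30.5 to 39.2 CPM (median 35.8). Every varenicline library, 6 in all, lay under the saline mean, and 3 of them (varenicline 3, 4 and 5, from 24.3 to 26.9 CPM) were below every saline library. The log2 fold change was -0.25 (SE 0.0966, 95% interval -0.46 to -0.04, edgeR adjusted p = 0.211). The FPKM ratio of Gabra5 to Gabra3 was 0.833 ± 0.166 with varenicline and 0.620 ± 0.0988 with saline, with overlapping ranges.

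**Figure D2:**
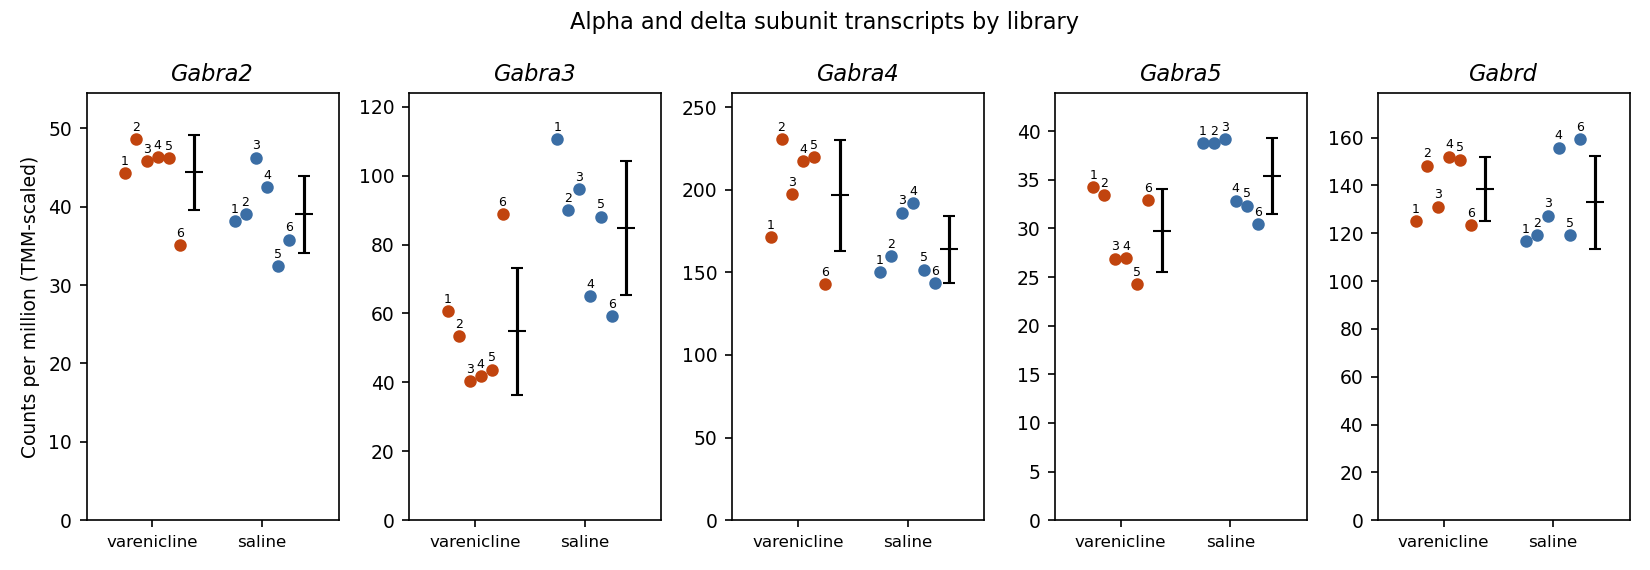
TMM-scaled CPM of each transcript in the 6 varenicline libraries (left in each panel) and the 6 saline libraries (right). Small digits name the library, and bars give the mean and SD. Varenicline 6 is the lowest varenicline library for Gabra2 and Gabra4, at 35.1 and 142.9 CPM, and the highest for Gabra3, at 88.8 CPM.

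As shares of the summed FPKM of the 5 transcripts, Gabrd made up 43.8% ± 1.79 with varenicline and 42.9% ± 5.22 with saline (SD, n = 6 each). Gabra4 made up 28.9% ± 3.11 with varenicline and 24.4% ± 1.85 with saline, and Gabra3 9.15% ± 3.72 with varenicline and 14.2% ± 3.62 with saline. The share of Gabra2 was 11.02% ± 0.789 with varenicline and 9.96% ± 0.694 with saline, and that of Gabra5 was 7.16% ± 1.29 with varenicline and 8.52% ± 1.04 with saline. A share moves when any of the other transcripts moves, so these values describe proportions, not separate changes.

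Leaving out varenicline 6 altered the calls. The edgeR adjusted p was then 0.00320 for Gabra3 (log2 fold change -0.81) and 0.0194 for Gabra4 (0.35), and both passed. In that fit 7.14% of all tested genes were called lower and 3.55% higher, against 0% with all 12 libraries. Gabra2 (0.25, adjusted p = 0.0513) and Gabra5 (-0.27, adjusted p = 0.0926) stayed short of the threshold, and Gabrd had 0.10 (adjusted p = 0.511). Other tools gave other calls. DESeq2 called 0 of the 5 with all 12 libraries, against 0.924% of tested genes higher and 1.7% lower. Without varenicline 6 it called Gabra2, Gabra3 and Gabra4, against 5.13% higher and 9.1% lower. With all 12 libraries it gave 2643 of the 15148 genes no adjusted p, against 0 genes without varenicline 6, so these shares are not on like terms. Limma-voom with sample weights called Gabra3, Gabra4 and Gabra5 in all 12 libraries, against 4.82% higher and 9.04% lower. Its weights let the libraries count unequally, and Gabra3 had -0.90 there, against -0.63 in edgeR with all 12 libraries. With edgeR, leaving out any other library left all 5 without a call, and Gabra3 then lay between -0.72 and -0.54.

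Transcripts that mark cortical excitatory neurons moved with some of these differences. All 12 of the listed markers were lower with varenicline, 11 at an unadjusted p under 0.05, where 9.63% of all tested genes were lower. Their summed level ran from 182 to 1288 CPM with varenicline and from 843 to 1468 CPM with saline. None of the 12 was at 0. Slc17a7, the vesicular glutamate transporter of cortical neurons, averaged 251 ± 221 CPM with varenicline and 590 ± 136 CPM with saline. The cortical score, the mean log2 CPM of the 12 markers, was 5.61 in varenicline 6, inside the saline range of 4.93 to 5.75, and between 2.77 and 4.48 in varenicline 1 to 5. Within the saline group, saline 4 and 6 had the lowest scores, 4.93 and 4.94, and also the lowest Gabra3 levels, 65.0 and 59.2 CPM, and the highest Gabrd levels. Gabra4 and Gabra2 did not follow the score there. Gabra4 was highest in saline 4 (191.9 CPM) and lowest in saline 6 (143.6 CPM), and Gabra2 was highest in saline 3 (46.3 CPM). Within the varenicline group the library with the highest cortical score, varenicline 6, had the highest Gabra3 and the lowest Gabra2 and Gabra4 levels. Gabrd was highest in varenicline 4, 5 and 2 (152, 151 and 148 CPM), which had the highest projection neuron scores (9.08, 9.16 and 9.03). Gabra5 was highest in varenicline 1 (34.2 CPM), with 32.9 CPM in varenicline 6. In bulk tissue, fewer cells of a type and less RNA per cell cannot be told apart.

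With the cortical score as a covariate, the log2 fold changes of the 5 transcripts ran from -0.09 to 0.03 and none passed. Of the varenicline libraries, only varenicline 6 had a score inside the saline range, so this fit rests largely on that library. The log2 fold change of Gabra3 was -0.07 (95% interval -0.35 to 0.21, edgeR adjusted p = 0.998), that of Gabra5 -0.03, that of Gabra4 0.02 and that of Gabra2 0.03. The 95% intervals of Gabra4 (-0.24 to 0.29) and Gabra2 (-0.21 to 0.27) included their values without the covariate, 0.26 and 0.19. Gabrd had -0.09, against 0.06 without the covariate. In that fit 0.0792% of tested genes were called higher and 0% lower. With the covariate and without varenicline 6, Gabra2 and Gabra4 had 0.22 and 0.25, Gabra3 had -0.12 and Gabra5 0.13, with edgeR adjusted p from 0.571 to 0.835 over the 5. In that fit 0% of tested genes were called in either direction. Without varenicline 6 the scores of the groups do not overlap (2.77 to 4.48 with varenicline, 4.93 to 5.75 with saline), so score and treatment cannot be told apart and the loss of calls in this fit says little. The SE of Gabra4 was 0.167 with the score, against 0.0880 without it, and the 95% interval for Gabra3 ran from -0.54 to 0.31.

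**Figure D3:**
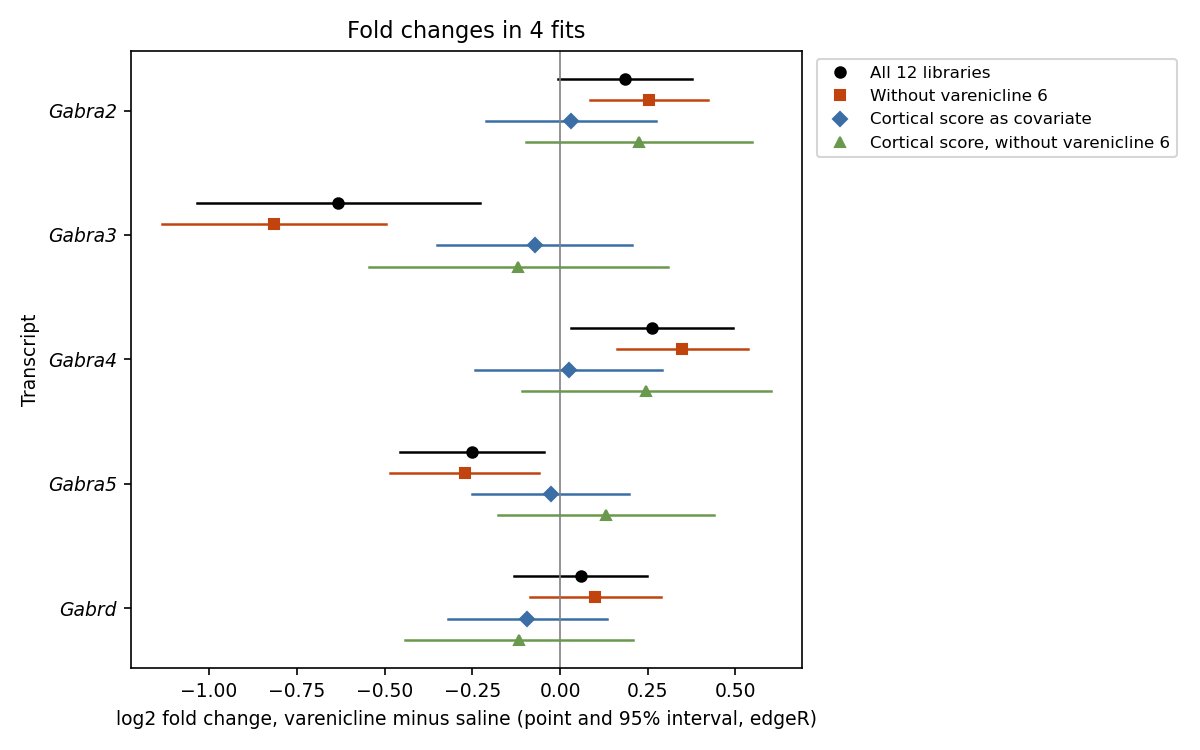
Log2 fold change (varenicline minus saline) with its 95% interval from edgeR for each transcript in 4 fits. Without varenicline 6, Gabra3 lies at -0.81 and Gabra4 at 0.35, and once the cortical score is a covariate all 5 intervals include 0.

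**Figure D4:**
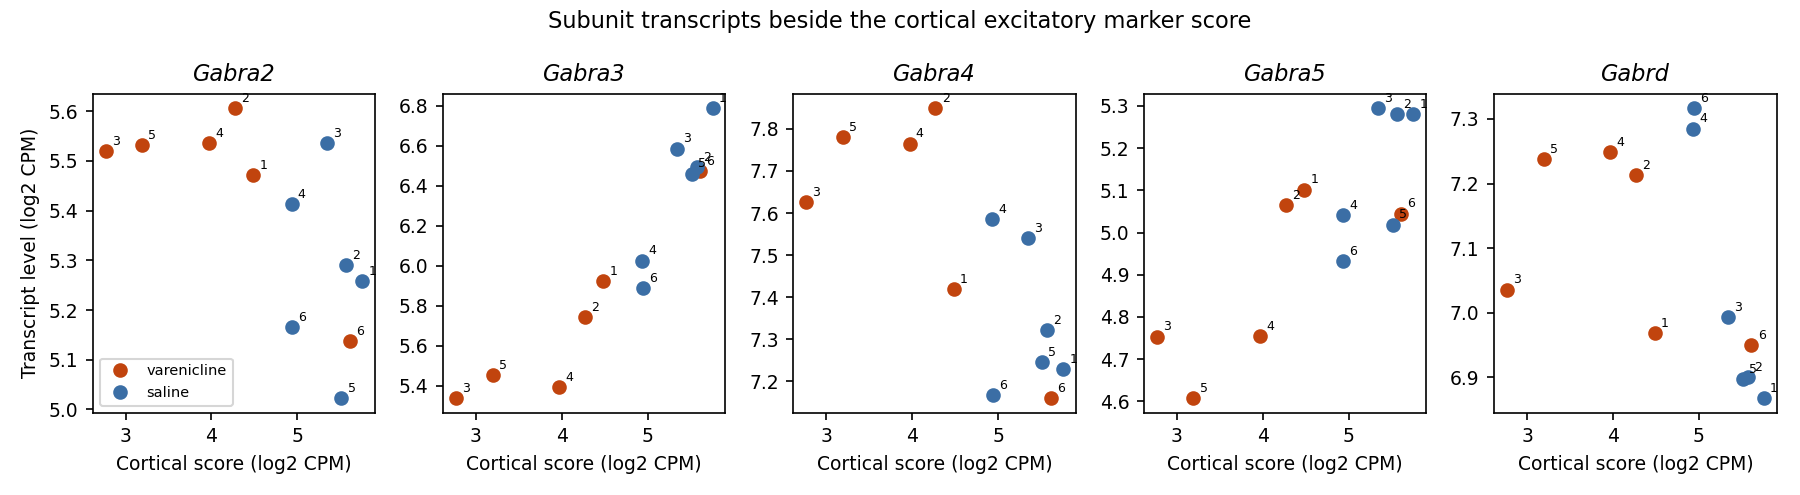
Log2 CPM of each transcript against the cortical excitatory marker score of the same library, with varenicline and saline libraries in separate colours and digits naming the library. Gabra3 and Gabra5 are lowest where the score is lowest (varenicline 3, 4 and 5), and varenicline 6, at a score of 5.61, lies among the saline libraries.

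Markers of other cells are given beside these values, and 0 of them passed in edgeR. At an unadjusted p under 0.05 in edgeR, 7.26% of all tested genes were higher and 9.63% lower. All 15 markers of striatal projection neurons were higher with varenicline, 6 at an unadjusted p under 0.05, with a summed level of 8904 to 14301 CPM with varenicline and 8266 to 12928 CPM with saline. All 9 oligodendrocyte markers were higher (4 at that unadjusted level, 10494 to 13772 CPM with varenicline and 11128 to 13784 CPM with saline), as were all 8 of septum and pallidum (7 at that level, 41.5 to 108 CPM with varenicline and 34.7 to 50.8 CPM with saline). Of 8 astrocyte markers 7 were higher (2 at that level, 2466 to 2804 CPM with varenicline and 2360 to 2553 CPM with saline), of 7 microglia markers 5 (0 at that level in either direction, 529 to 643 CPM with varenicline and 546 to 605 CPM with saline) and of 6 choroid plexus markers 6 (0 at that level, 93.4 to 1927 CPM with varenicline and 81.2 to 1673 CPM with saline). Among 11 interneuron markers 6 were higher and 5 lower (383 to 487 CPM with varenicline and 420 to 511 CPM with saline). At the unadjusted level these were 1 higher, Slc5a7 (log2 fold change 0.38), and 2 lower, the neuropeptides Sst (-0.32) and Npy (-0.36). Of 6 tested thalamic markers, from a region rich in alpha4 and delta, 1 was higher and 5 lower, 2 of these at the unadjusted level (Rgs16 with -0.76 and Slc17a6 with -0.78), with summed levels of 62.2 to 104 CPM with varenicline and 64.1 to 188 CPM with saline. The interneuron and thalamic genes named here were chosen after their values were seen. The part of these lists in the values of the 5 subunits was not tested.

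Among the other GABA-A receptor subunits, 9 of 14 had enough counts to be tested, and 0 passed in edgeR. Gabrg1, in the cluster with Gabra2 and Gabra4, had a log2 fold change of 0.36 (edgeR adjusted p = 0.178), with 23.6 ± 4.88 CPM with varenicline and 18.4 ± 2.44 CPM with saline, and Gabrg3 had 0.26. Gabrb1 and Gabrb2, which encode beta subunits, had 0.02 and -0.11. The scarce Gabrq and Gabrr2 had 0.42 and 0.47, with means of 1.51 and 2.00 CPM with varenicline and 1.13 and 1.41 CPM with saline. Gabra6, Gabre, Gabrp, Gabrr1 and Gabrr3 were below the filter, with sums of 4, 70, 3, 30 and 17 counts across the 12 libraries.

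No gene passed in the lists of receptor partners and GABA metabolism either. Among 18 proteins that cluster, traffic or modify the receptor, an unadjusted p under 0.05 was found for 1 higher and 2 lower genes. These counts are near the shares over all tested genes at that level, 7.26% higher and 9.63% lower. Nsf, a trafficking ATPase, had a log2 fold change of -0.21 (580 ± 44.5 CPM with varenicline, 670 ± 27.3 CPM with saline, edgeR adjusted p = 0.138). Plcl1, a phospholipase-like scaffold of the receptor, had 0.22, and Nlgn2, the adhesion protein of inhibitory synapses, had -0.14. Of 8 genes of GABA synthesis and transport 7 were higher, 3 at that unadjusted level, with a median of 0.11. Of all tested genes 7921 of 15148 were higher, and 7.26% were higher at that level. The 15 projection neuron markers, from cells that make GABA, were higher as well, and their part in these values was not tested. The 3 genes of GABA synthesis and transport that were higher at that level were the synthesizing enzymes Gad1 (0.21) and Gad2 (0.25) and the vesicular transporter Slc32a1 (0.19). Of 10 chloride-handling genes 2 were higher and 1 lower at that level, namely the importer Slc12a2 (0.21), its activating kinase Oxsr1 (0.11) and the carbonic anhydrase Car7 (-0.32). Of 6 tested neurosteroid genes 1 was lower at that level. It was Cyp11a1, the first enzyme of steroid synthesis, with -0.53 and 3.87 ± 1.10 CPM with varenicline and 5.57 ± 1.11 CPM with saline. Srd5a3 and Star, next by p, had 0.10 and 0.22.

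The transcripts whose levels followed each subunit most closely over the 12 libraries were different for the 5. By Pearson correlation of log2 CPM, a description only since all genes share the libraries and their tissue makeup, Gabra3 was closest to Slc6a7, the brain proline transporter (0.99, Spearman 0.92), to Mtfp1 (0.98) and to Sh3gl2 (0.98). With the group means subtracted, Slc6a7 and Mtfp1 were again at the top (0.98 and 0.97). Gabra4 was closest to Tomm70a (0.98), to Ppp3ca, the catalytic subunit of calcineurin (0.98), and to Prkar2b, a regulatory subunit of protein kinase A (0.97). Gabra2 was closest to Mgea5 (0.96), Kctd12, an auxiliary subunit of GABA-B receptors (0.96), and Rfx3 (0.96). For Gabra5 they were Map2k4 (0.96), Pls3 (0.96) and Serpini1 (0.95), and for Gabrd Slc22a23 (0.97), Itpr1, the inositol trisphosphate receptor (0.94), and Garem (0.94).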

How the data were processed

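RNA from bilateral striatum was sequenced as single reads of 150 nt from Illumina TruSeq libraries, per the labels' protocols. The submitters' processing notes name mm10 and, in no order and without versions, featureCounts, TopHat2, Trimmomatic, FastQC, Cuffnorm, Cuffdiff and DESeq2; annotation and strand use are not given. The authors deposited raw counts per gene, FPKM values, and a signal of scaled counts that the file name credits to Cuffnorm. Exon lengths are those given per the file headers. Libraries were grouped by the treatment label. Library numbers are only names, in accession order, and were not used for pairing.

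Counts were filtered with filterByExpr of edgeR 4.0.16, scaled by TMM and tested with its quasi-likelihood test, with Benjamini-Hochberg adjustment over 15148 genes and a threshold of 0.05. The SE is the absolute log2 fold change over the square root of F. Log2 CPM used a prior count of 2. FPKM was used for levels between genes. Alternatives were other size factors and filters, DESeq2 1.42.0, limma 3.58.1 (voom with sample weights, and log2 of FPKM plus 1 or 0.1 and of Cuffnorm values plus 1, for genes above 0 in at least 6 libraries), a cortical score as covariate, and each library left out. DESeq2 without varenicline 6 was added after seeing the data. The members, lists and rules were chosen with earlier results of these data known. The genes named were the 5 members, the tested receptor subunits, up to 3 genes with the smallest p in each other pathway list, and the 3 genes closest to each member, predicted genes left out. Some subunits under this rule are not reported here.

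Library totals ran from 13340420 to 24522349 counts with varenicline and from 14040416 to 27917715 with saline. No 2 libraries agreed within sampling noise (lowest chi-square per degree of freedom 5.89 over 66 pairs). On simulated counts with 200 changed genes, tested over 15049, edgeR recovered 42% of those changed 1.25-fold and 88% at 1.5-fold, with 9 false calls. The simulated counts were drawn for each gene on its own, without variation shared between genes. The recovered shares therefore need not hold for the real libraries. R was 4.3.3 and matplotlib 3.10.9.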

Additional observations from a re-analysis of the deposited data

Results flagged for a closer look

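A library stood far from the rest of its group in 6 of 88 sets of 6 values. Chance gives about 1 in 20, or 4.4. Gabra2 in varenicline 6 was 5.14 in log2 CPM, and varenicline 1 to 5 ran from 5.47 to 5.61. The same library was lowest of its group for Gad2 (8.33, others 8.71 to 8.86), for Plcl1 (5.69, others 5.98 to 6.13) and for the oligodendrocyte score (8.78, others 9.09 to 9.20). In saline 6 the oligodendrocyte score was 9.12, above the other saline libraries at 8.82 to 8.89. The ratio of Gabrd to Gabra4 in FPKM was also highest in saline 6, at 2.40, where the others lay between 1.49 and 1.75.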

How the results depend on the processing

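No paired analysis was possible because the labels give every library the same replicate number. Over 24 alternatives the directions of Gabra2, Gabra3 and Gabra4 were kept, with log2 fold changes from 0.03 to 0.25, from -0.90 to -0.07 and from 0.02 to 0.35. Limma-voom with sample weights, in which libraries count unequally, called Gabra3 (-0.90, adjusted p = 0.00171), Gabra5 (-0.36, adjusted p = 0.0121) and Gabra4 (0.33, adjusted p = 0.0216). It called 4.82% of tested genes higher and 9.04% lower. DESeq2 called 0 of the 5 in all 12 libraries, and without varenicline 6 it called Gabra2 (0.25, adjusted p = 0.0280), Gabra3 (-0.82, adjusted p = 2.3e-04) and Gabra4 (0.34, adjusted p = 0.00325), where it called 5.13% higher and 9.1% lower. With the cortical score Gabrd turned to -0.0928, and to -0.116 without varenicline 6, where Gabra5 turned to 0.13; the cause was not tested. Leaving out each library, log2 fold changes ran from 0.14 to 0.25 for Gabra2, -0.81 to -0.54 for Gabra3, 0.21 to 0.35 for Gabra4, -0.29 to -0.19 for Gabra5 and 0.03 to 0.12 for Gabrd. Over all genes edgeR called 0 higher and 0 lower. Leaving out each library gave 0 to 541 higher and 0 to 1087 lower calls, the highest of both without varenicline 6 and 4 higher without varenicline 2. DESeq2 called 140 higher and 257 lower, and 782 and 1386 without varenicline 6, limma-voom 730 and 1369, and edgeR with the cortical score 12 higher. At an unadjusted p under 0.05 edgeR had 2558 genes. No scaling moved the median of all genes by 0.1.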
